A study of Homo sapiens with 15 samples.

Results

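The dual-specificity MAP kinase phosphatases (MKPs) are the enzymes that switch MAP kinases off. Of the 60286 genes in the count table, 9 were taken by their symbols: DUSP1, DUSP2, DUSP4, DUSP5, DUSP6, DUSP7, DUSP8, DUSP10 and DUSP16. They were chosen as a gene family, with earlier results of these data known, and all 9 passed the filter on low counts that left 17198 genes for testing. RNA was sequenced from THP-1, a human monocytic leukemia cell line, in 15 libraries, 3 per group. Cells given PBS served as the control (NC). Bacterial extracellular vesicles (BEVs) of *E. coli* were added at 1 μg/mL after isolation by ultracentrifugation (UC, group EUC) or with ε-poly-L-lysine (PL, group EPL). Those of *S. aureus* were added at 10 μg/mL, again after isolation by UC (group SUC) or PL (group SPL). All groups were kept in the same medium with serum and antibiotics. Incubation lasted 6 h by the methods, while the labels give Day 0. The dose changed together with the species, so the effects of the dose and of the species cannot be told apart. The 3 libraries of a group are samples of 1 cell line, and p-values measure the spread between them, which may be technical.

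MAP kinases (ERK, JNK and p38) carry signals from surface receptors, including the Toll-like receptors that recognize bacterial material, to transcription factors. They are active when phosphorylated on both a threonine and a tyrosine, and an MKP removes both phosphates. Many MKP genes are themselves transcribed in response to MAP kinase signals, which makes them feedback inhibitors. The family is commonly divided by place and substrate into inducible nuclear enzymes (DUSP1, DUSP2, DUSP4 and DUSP5), cytoplasmic enzymes selective for ERK (DUSP6, DUSP7 and DUSP9) and enzymes selective for JNK and p38 (DUSP8, DUSP10 and DUSP16). DUSP9 is not one of the 9 genes and is given only for comparison. In macrophages DUSP1 is known as a brake on inflammatory cytokine production.

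Promoters are shown for the genes with the largest rises (DUSP1 and DUSP6), for a further induced gene that shares a motif with DUSP1 (DUSP8) and for the gene that fell (DUSP7). Each line holds the 250 bases before the RefSeq start site on the GRCh38.p14 build, read 5′ to 3′ on the minus strand, on which all of these genes lie. The regions are chr5:172771196-172771445 for DUSP1, chr12:89352502-89352751 for DUSP6, chr11:1572272-1572521 for DUSP8 and chr3:52056572-52056821 for DUSP7. Capitals mark the full cAMP response element (CRE) motif TGACGTCA, the binding sequence of CREB and ATF factors.
DUSP1: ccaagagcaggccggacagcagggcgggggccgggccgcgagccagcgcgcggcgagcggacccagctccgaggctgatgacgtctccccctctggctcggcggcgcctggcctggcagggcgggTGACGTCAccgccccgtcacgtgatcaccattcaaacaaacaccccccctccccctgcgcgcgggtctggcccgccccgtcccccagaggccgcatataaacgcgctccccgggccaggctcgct
DUSP8: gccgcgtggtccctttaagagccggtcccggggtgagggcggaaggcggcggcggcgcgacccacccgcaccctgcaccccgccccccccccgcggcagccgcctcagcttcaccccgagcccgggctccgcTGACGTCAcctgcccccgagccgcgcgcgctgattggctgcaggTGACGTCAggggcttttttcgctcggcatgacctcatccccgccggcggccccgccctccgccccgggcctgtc
DUSP6: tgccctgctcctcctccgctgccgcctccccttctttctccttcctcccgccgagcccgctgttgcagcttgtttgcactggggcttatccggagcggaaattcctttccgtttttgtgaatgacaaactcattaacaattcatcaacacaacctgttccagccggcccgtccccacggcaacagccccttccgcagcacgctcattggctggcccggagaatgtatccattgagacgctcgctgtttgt
DUSP7: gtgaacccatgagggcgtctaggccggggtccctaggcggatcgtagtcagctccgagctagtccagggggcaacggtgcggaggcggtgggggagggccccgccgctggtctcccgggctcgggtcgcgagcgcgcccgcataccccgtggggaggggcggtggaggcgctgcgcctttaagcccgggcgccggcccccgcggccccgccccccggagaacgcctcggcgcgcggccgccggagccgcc
The DUSP1 promoter held 1 full CRE, 125 bases before the start site. The DUSP8 promoter held 2, at 118 and 74 bases before it. The motif is its own reverse complement, so each match stands on both strands. Promoters of 7 members (8 start sites) were searched, and the other 5 members had no match. Those of DUSP4 and DUSP5 were not used here. In all, 571 of 34943 RefSeq promoters (1.63%) held the motif. On either strand, none of the 8 promoters held the AP-1 motif TGANTCA (6.59% of all promoters), the ETS motif CCGGAAGT (3.39%), the NF-kappa B consensus (5.2%) or the CArG box of serum response factor (1.16%). A match is a description of letters and not a binding site, and a missing match says nothing about a factor.

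The libraries held 14399421 to 16637345 counted reads. Levels are given as CPM, which are counts scaled by the normalized library size. Differences are log2 fold changes from edgeR's quasi-likelihood test, fitted to all 15 libraries with Benjamini-Hochberg adjustment over all 17198 tested genes, and a gene was called when its adjusted p was at most 0.01 and its change at least 2-fold. The 4 comparisons with NC share the same 3 NC libraries. In EUC against NC, 8269 of the 17198 tested genes had an unadjusted p of at most 0.05 in the edgeR test. The share of all tested genes whose libraries do not overlap between groups was not counted, so a lack of overlap is a description only. EUC3, EPL1 and SUC3 differed most from the other libraries of their groups, with a chi-square per degree of freedom of 15.6 to 46.3 in the 6 replicate pairs that hold them and 2.21 to 7.11 in the other 9 pairs. Leaving these libraries out together was chosen after seeing the data, and its effect is given beside the results it changes. Monocytic markers were expressed in every library (SPI1, CSF1R, CD33, LYZ, FCGR1A and ITGAM). CD14 was low, at 3.20 to 9.90 CPM, as was MPO, at 3.07 to 10.5 CPM. CD68 was near 0, with at most 3 counts in a library. The summed level of the 9 monocytic markers was 1011 to 1033 CPM in NC and 1480 to 2005 CPM in BEV-stimulated cells. The markers did not move together. The group means of SPI1 were 471 CPM in NC and 960.3 to 1198 CPM after stimulation. Those of CSF1R were 208 and 281 to 334 CPM, and those of CD14 were 3.77 and 7.01 to 8.88 CPM. CD33 (82.8 and 50.1 to 64.8 CPM), LYZ (90.4 and 66.1 to 84.0 CPM), ITGAM (60.1 and 50.4 to 58.0 CPM) and MPO (10.2 and 3.38 to 4.21 CPM) were lower. FCGR1A had 95.1 CPM in NC and 69.0 to 96.9 CPM after stimulation. T cell, erythroid and epithelial markers were at or near 0 in every library. The fibroblast marker COL1A1 lay between 0.64 and 0.882 CPM in NC and between 1.63 and 5.12 CPM in BEV-stimulated cells, and the part of any of these in the results was not tested. In bulk RNA, fewer cells expressing a gene and less RNA per cell cannot be told apart.

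DUSP1, DUSP4, DUSP6, DUSP8 and DUSP16 rose in all 4 stimulated groups. DUSP5 rose past 2-fold in EUC, DUSP7 fell past 2-fold in EUC and EPL, and DUSP2 and DUSP10 were not called in any group. In EUC, 6 of the 9 genes were called higher and 1 lower, against 9.43% and 5.75% of all tested genes. For EPL the counts were 5 higher and 1 lower, against 9.38% and 5.15%. SUC had 5 higher and 0 lower, against 6.82% and 3.06%, and SPL had 5 higher and 0 lower, against 7.76% and 3.7%. DESeq2 gave the same numbers of called members in these 4 comparisons. The median log2 fold change of the 9 genes was 1.89 for EUC, 1.97 for EPL, 1.28 for SUC and 1.41 for SPL, and the medians of all tested genes lay between -0.00651 and 0.00673. Without EUC3, EPL1 and SUC3, the members called were 6, 6, 5 and 5, the lost call being that of DUSP5.

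**Figure D1:**
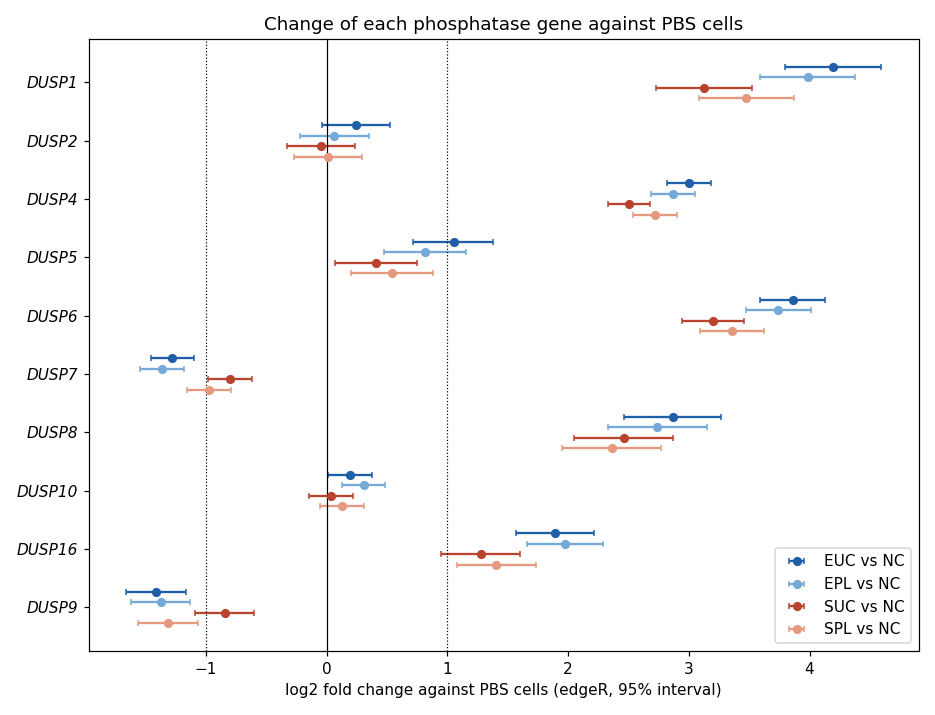
Log2 fold change against PBS cells (NC) on the x axis for each phosphatase gene on the y axis. Points are edgeR estimates, bars are 95% intervals, colours are the 4 stimulated groups and dotted lines mark a 2-fold change. DUSP1, DUSP4, DUSP6, DUSP8 and DUSP16 lie right of the 2-fold line in all 4 groups, and DUSP7 and DUSP9 lie left of 0.

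Among the nuclear MKPs, DUSP1, an immediate-early gene whose product acts mainly on p38 and JNK, had the largest fitted rise of the 9 genes in EUC and EPL, and in SPL as well. It lies on the minus strand of chromosome 5, at chr5:172768096-172771195, with 4 exons. Its level was 4.42, 3.71 and 6.08 CPM in the 3 NC libraries. It was 76.3, 92.6 and 92.0 CPM in EUC and 86.7, 75.7 and 62.9 CPM in EPL. In SUC it reached 38.4, 37.6 and 48.0 CPM, and in SPL 62.2, 47.3 and 48.5 CPM. Every stimulated library was above every NC library, and every *E. coli* BEV library was above every *S. aureus* BEV library. The log2 fold change was 4.20 ± 0.187 (SE, n = 3 per group) in EUC, with an adjusted p of 8.31e-12, or 18.3-fold. It was 3.98 ± 0.187 in EPL, 3.12 ± 0.186 in SUC and 3.47 ± 0.186 in SPL, or 15.8-fold, 8.71-fold and 11.1-fold, with adjusted p of at most 5.93e-10.

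DUSP4, a nuclear enzyme whose transcription is known to follow ERK activity, had the smallest SEs among the induced genes. The gene, with 4 exons, is at chr8:29333064-29350684 on the minus strand. NC libraries had 11.5, 11.9 and 11.4 CPM. The EUC libraries had 96.4, 95.02 and 87.1 CPM, and those of EPL had 79.8, 91.2 and 83.7 CPM. With *S. aureus* BEVs the levels were 69.4, 63.9 and 64.3 CPM in SUC and 78.8, 74.4 and 75.4 CPM in SPL. No stimulated library was near the NC range, and SUC and SPL did not overlap each other. The log2 fold changes of DUSP4 were 3.001 for EUC, 2.87 for EPL, 2.51 for SUC and 2.72 for SPL, with SEs of 0.0848 to 0.0855 and adjusted p between 2.95e-14 and 3.6e-13.

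DUSP5, which binds and inactivates ERK in the nucleus, rose less. It is on chromosome 10 (chr10:110497907-110511533, plus strand). Its levels were 10.9, 9.65 and 9.96 CPM in NC and 17.6, 19.2 and 26.4 CPM in EUC. They were 19.5, 19.6 and 14.4 CPM in EPL, 12.6, 12.4 and 15.4 CPM in SUC, and 15.9, 14.04 and 14.3 CPM in SPL. All stimulated libraries were above the NC libraries, and the stimulated groups that follow each other in order overlapped. The log2 fold change was 1.05 ± 0.157 in EUC (adjusted p = 3.52e-05) and 0.81 ± 0.158 in EPL (adjusted p = 5.11e-04), the latter under 2-fold. In SPL it was 0.54 (adjusted p = 0.0145) and in SUC 0.41 (adjusted p = 0.0627), neither past the threshold. The call in EUC rested on the library EUC3, without which the log2 fold change was 0.85, and it was lost with upper-quartile normalization (0.95).

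DUSP2, a nuclear phosphatase first described in activated lymphocytes, was not called in any group. It lies at chr2:96143169-96145440 on the minus strand. Its NC libraries lay between 19.7 and 24.9 CPM and the stimulated libraries between 18.7 and 28.1 CPM, so that the groups overlapped throughout. The 95% interval of its log2 fold change was -0.037 to 0.524 for EUC, -0.218 to 0.346 for EPL, -0.331 to 0.236 for SUC and -0.273 to 0.293 for SPL. Changes of 2-fold lie outside all 4 intervals.

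**Figure D2:**
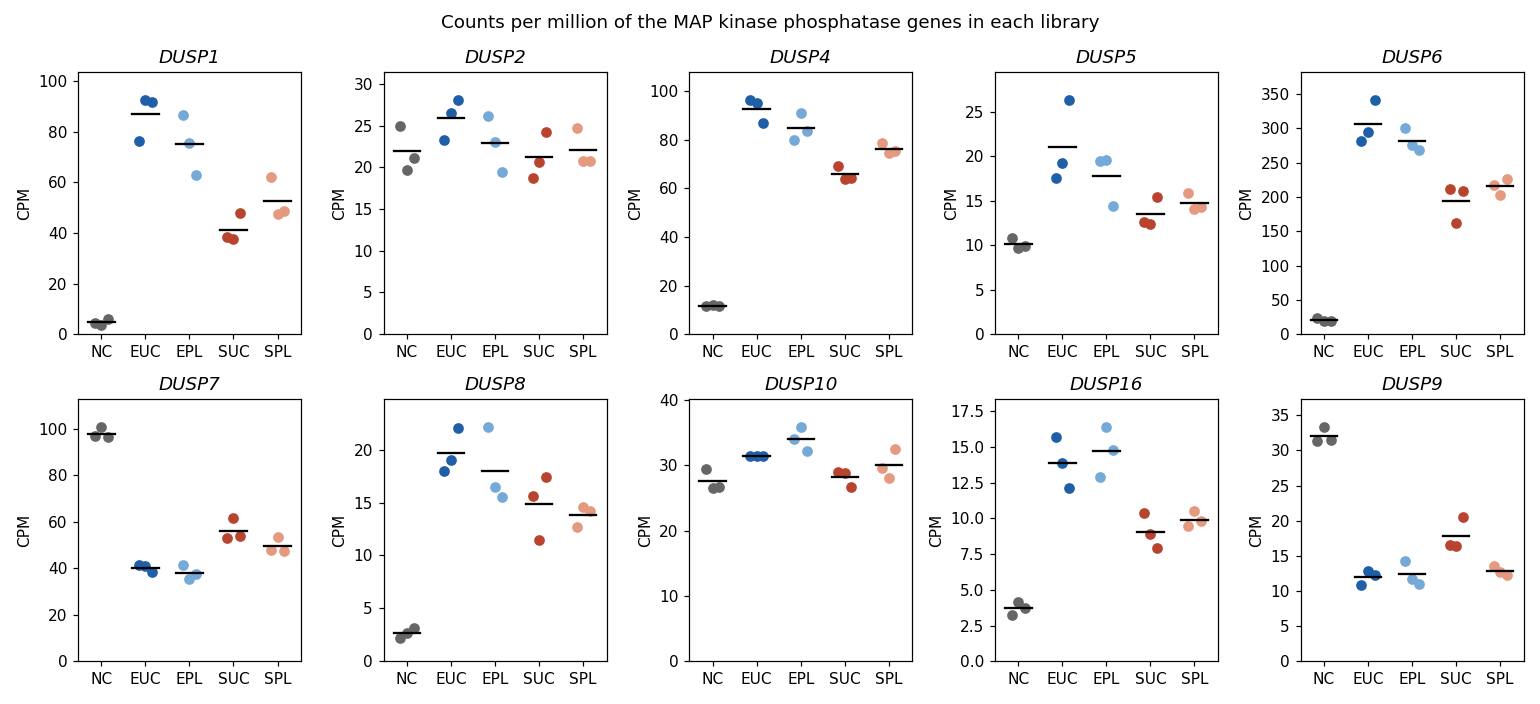
CPM on the y axis (from 0, with a scale of its own in each panel) by group on the x axis for the 9 phosphatase genes and DUSP9. Each point is 1 library and the black line is the mean of 3 libraries. NC points of DUSP1, DUSP4, DUSP5, DUSP6, DUSP8 and DUSP16 lie below all stimulated points, those of DUSP7 and DUSP9 lie above them, and those of DUSP2 lie among them. How many of all tested genes separate in this way was not counted.

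The cytoplasmic ERK phosphatases moved in opposite directions. DUSP6, the ERK-selective feedback phosphatase used widely as a readout of ERK activity, is at chr12:89347235-89352501 on the minus strand and has 3 exons. Its levels were 24.1, 19.4 and 19.8 CPM in NC. They were 282, 295 and 341 CPM in EUC and 301, 276 and 268 CPM in EPL. The SUC libraries had 211, 162 and 208 CPM, and the SPL libraries had 218, 203 and 226 CPM. Stimulated libraries were all far above NC, and the *E. coli* BEV libraries were all above the *S. aureus* BEV libraries. Log2 fold changes were 3.86 ± 0.126 for EUC, 3.74 ± 0.126 for EPL, 3.20 ± 0.124 for SUC and 3.36 ± 0.124 for SPL, or 14.5-fold, 13.4-fold, 9.19-fold and 10.2-fold, with adjusted p of at most 1.98e-12. An unnamed lncRNA gene (ENSG00000274021) on the opposite strand shares 1105 exon bases with DUSP6. It had 339 counts over the 15 libraries, 27 of them in NC, and since the strand setting of the counting is not given, reads of the overlap cannot be assigned with certainty. DUSP6 had between 329 and 5192 counts in each library. Opposite-strand lncRNA genes also overlap DUSP1, DUSP8 and DUSP16, with 0 shared exon bases.

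DUSP7, its relative with the same substrate, was the only one of the 9 genes that fell. It lies at chr3:52048919-52056571 on the minus strand. The NC libraries had 96.8, 101 and 96.5 CPM. With *E. coli* BEVs the levels were 41.7, 40.9 and 38.5 CPM in EUC and 41.5, 35.5 and 37.5 CPM in EPL. The SUC libraries had 52.9, 61.9 and 54.1 CPM and the SPL libraries 48.1, 53.4 and 47.6 CPM. Every stimulated library was below NC, and every *E. coli* BEV library was below every *S. aureus* BEV library. DUSP7 fell by 1.28 ± 0.0869 on the log2 scale in EUC (adjusted p = 2.19e-09) and by 1.36 ± 0.0872 in EPL (adjusted p = 1.09e-09). The fall was 0.98 in SPL (log2 fold change -0.98, adjusted p = 8.89e-08) and 0.80 in SUC (log2 fold change -0.80, adjusted p = 1.23e-06), both under 2-fold. The change in SPL passed 2-fold with upper-quartile normalization (-1.05) and without SPL2 (-1.03).

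DUSP9, the third cytoplasmic ERK phosphatase, also fell. Its NC libraries lay between 31.4 and 33.3 CPM and its stimulated libraries between 10.9 and 20.5 CPM, with no overlap. Its log2 fold change was -1.42 in EUC, -1.38 in EPL and -1.32 in SPL, each called, and -0.85 in SUC, under 2-fold, with adjusted p of at most 1.69e-05.

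The ratio of DUSP6 to DUSP7 shows the opposite movement within a library. Levels of different genes are compared here as RPKM, which divides CPM by the length of all annotated exons in kilobases. For DUSP6 this length includes the 1105 exon bases shared with the opposite-strand lncRNA gene, where reads cannot be assigned with certainty. The same limit holds for the ranks and shares of DUSP6 given below. The ratio was 0.317 ± 0.0439 (SD, n = 3) in NC, 11.2 ± 1.63 for EUC, 10.9 ± 0.498 for EPL, 5.12 ± 1.11 for SUC and 6.404 ± 0.716 for SPL. DUSP7 exceeded DUSP6 in each NC library, and DUSP6 exceeded DUSP7 in each stimulated library. With the length of the canonical transcript, an alternative chosen after seeing the data, the mean ratios were 0.200, 7.06, 6.85, 3.23 and 4.04 in the same order.

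The phosphatases selective for JNK and p38 did not move together. DUSP8 is on chromosome 11 (chr11:1554051-1572271, minus strand). It was low in NC, at 2.24, 2.65 and 3.16 CPM, from 35, 45 and 53 counts. The EUC libraries had 18.0, 19.0 and 22.02 CPM and the EPL libraries 22.1, 16.4 and 15.5 CPM. SUC had 15.6, 11.5 and 17.4 CPM, and SPL had 12.7, 14.6 and 14.2 CPM. All stimulated groups were above NC and, in the order of their means, overlapped with their neighbours. The log2 fold change of DUSP8 was 2.87 ± 0.192 for EUC, 2.74 ± 0.192 for EPL, 2.46 ± 0.194 for SUC and 2.36 ± 0.195 for SPL, with adjusted p of at most 3.94e-08.

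DUSP16, which binds JNK and p38 and shuttles between nucleus and cytoplasm, is at chr12:12473282-12562863 on the minus strand. Its NC libraries had 3.26, 4.18 and 3.76 CPM. Levels were 15.7, 13.8 and 12.1 CPM in EUC and 12.9, 16.4 and 14.8 CPM in EPL. They were 10.4, 8.93 and 7.92 CPM in SUC and 9.45, 10.5 and 9.79 CPM in SPL. The *E. coli* BEV libraries were all above the *S. aureus* BEV libraries, which were all above NC. The log2 fold change was 1.89 ± 0.151 for EUC, 1.97 ± 0.150 for EPL, 1.28 ± 0.155 for SUC and 1.41 ± 0.154 for SPL, with adjusted p of at most 5.2e-06.

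DUSP10, known to restrain JNK and p38 in immune cells, is at chr1:221701424-221742089 on the minus strand and was not called in any group. Its range was 26.5 to 29.4 CPM in NC and 26.7 to 35.8 CPM in stimulated cells. EPL was higher by 0.31 ± 0.0853 on the log2 scale (adjusted p = 0.00845), with no overlap with NC, which is 1.24-fold and under the 2-fold threshold. The other log2 fold changes were 0.19 in EUC (adjusted p = 0.0828), 0.03 in SUC (adjusted p = 0.812) and 0.13 in SPL (adjusted p = 0.286). The EUC libraries, at 31.4 to 31.5 CPM, did not overlap with NC either, while those of SUC and SPL did.

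The order of the 9 genes by level per length was different in stimulated cells. In NC, DUSP7 had the highest mean, 17.3 RPKM, followed by DUSP2 (11.4 RPKM) and DUSP10 (9.73 RPKM), while DUSP6 had 5.46 RPKM and DUSP1 had 2.35 RPKM. In EUC, DUSP6 led with 79.3 RPKM and DUSP1 followed with 43.2 RPKM, ahead of DUSP2 (13.4 RPKM), DUSP4 (12.8 RPKM) and DUSP10 (11.1 RPKM), while DUSP7 had 7.12 RPKM. DUSP6 and DUSP1 held the same places in EPL, SUC and SPL. DUSP8 and DUSP16 were the lowest in every group, at 0.541 and 0.523 RPKM in NC and 3.97 and 1.95 RPKM in EUC. With canonical transcript lengths, the highest gene in NC and the leading pair in each stimulated group were the same, while DUSP4 and DUSP7 took other places among the middle ranks and DUSP16 came before DUSP8 in NC.

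The summed level of the 9 genes was 52.9 ± 2.47 RPKM (SD, n = 3) in NC. It was 181 ± 13.8 RPKM for EUC, 165 ± 13.9 RPKM for EPL, 120 ± 9.78 RPKM for SUC and 133 ± 6.85 RPKM for SPL. DUSP7 made up 32.8% ± 2.15 of this sum in NC and 3.95%, 4.08%, 8.34% and 6.6% in EUC, EPL, SUC and SPL. DUSP6 made up 10.3% ± 0.811 in NC and between 41.6% and 44.2% in the stimulated groups. The share of DUSP1 was 4.45% in NC and between 17% and 23.8% in the stimulated groups. Shares of DUSP2 and DUSP10, whose own levels were close to those of NC, were 21.4% and 18.4% in NC and at most 9.15% and 8.33% after stimulation. With canonical transcript lengths, the share of DUSP7 was 42.8% in NC and 6.08%, 6.27%, 12.4% and 9.95% in EUC, EPL, SUC and SPL, and that of DUSP6 was 8.5% in NC and 39.2% to 42.8% in the stimulated groups.

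**Figure D3:**
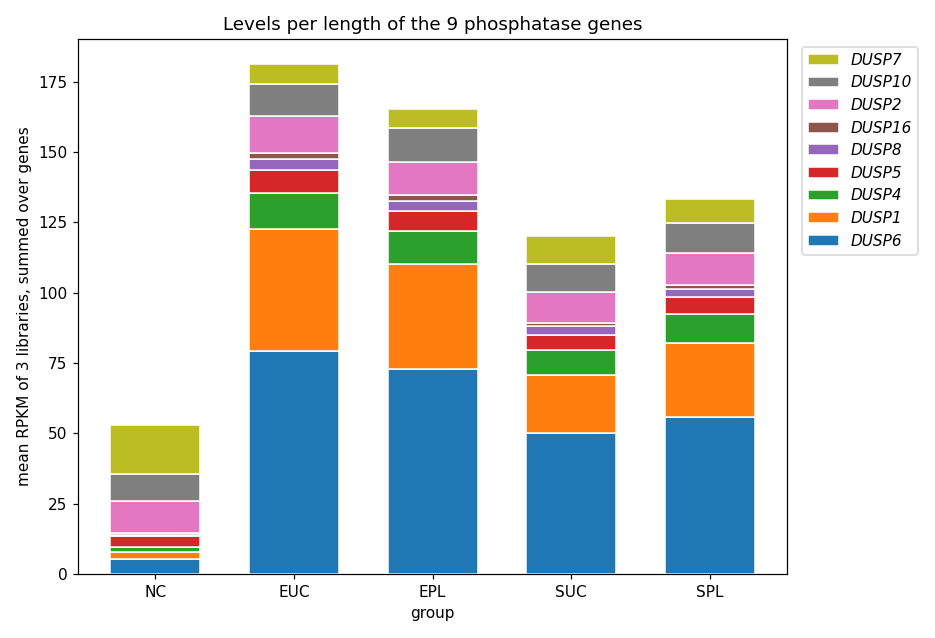
Mean RPKM of the 9 phosphatase genes (y axis, from 0), stacked by gene, in each group of 3 libraries (x axis). The sum is 52.9 RPKM in NC with DUSP7 as the largest segment, and 120 to 181 RPKM in the stimulated groups with DUSP6 and DUSP1 as the largest segments.

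The isolation methods were compared within each species. For *E. coli* BEVs (EPL against EUC), 0 of the 9 genes were called by edgeR or DESeq2 and 0 had an unadjusted p of at most 0.05, against 0% of all tested genes called and 604 genes with an unadjusted p of at most 0.05. The largest difference was that of DUSP5, a log2 fold change of -0.24 with a 95% interval of -0.559 to 0.0824. DUSP1 differed by -0.21 (-0.531 to 0.107), DUSP6 by -0.12 (-0.353 to 0.112) and DUSP7 by -0.08 (-0.266 to 0.105). For *S. aureus* BEVs (SPL against SUC), 0 of 9 were called by either tool, against 0.00581% of all tested genes, and 2 had an unadjusted p of at most 0.05, as did 1000 of all 17198. These were DUSP1, higher in SPL by 0.35 (0.0242 to 0.679, adjusted p = 0.814), and DUSP4, higher in SPL by 0.21 (0.049 to 0.372, adjusted p = 0.814). The remaining members had log2 differences of -0.18 to 0.16. None of the 95% intervals of the 9 genes, in either species, reached a 2-fold change.

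The difference between the methods was also compared between the species, as EPL minus EUC against SPL minus SUC. Here 0 of 9 genes were called by edgeR or DESeq2 (0% of all tested genes by edgeR), and 2 had an unadjusted p of at most 0.05, as did 659 of all 17198. DUSP1 gave -0.56 ± 0.216 and DUSP4 gave -0.34 ± 0.107 on the log2 scale, and each had an adjusted p of 1. Their levels were higher with UC than with PL for *E. coli* BEVs and lower with UC than with PL for *S. aureus* BEVs.

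*E. coli* BEVs were then compared with *S. aureus* BEVs, as the mean of both isolation methods. At the 2-fold threshold 0 of the 9 genes were called higher or lower by edgeR or DESeq2, against 0.663% and 0.0233% of all tested genes, and 8 had an unadjusted p of at most 0.05, as did 2920 of the 17198 tested genes. With the adjusted p alone, 4 were higher and 1 was lower with *E. coli* BEVs, against 2.87% higher and 1% lower of all tested genes. The higher genes were DUSP1, DUSP16, DUSP6 and DUSP4. DUSP1 was higher by 0.79 ± 0.108 on the log2 scale (adjusted p = 1.5e-04), DUSP16 by 0.59 ± 0.0973 (adjusted p = 8.14e-04), DUSP6 by 0.52 ± 0.0781 (adjusted p = 3.34e-04) and DUSP4 by 0.33 ± 0.0537 (adjusted p = 8.13e-04). DUSP7 differed by -0.43 ± 0.0616 (adjusted p = 2.23e-04). For each of these 5 genes, the 6 libraries of one species did not overlap the 6 of the other. The 5 were picked by their adjusted p from the same values, and how many of all tested genes separate so was not counted. DUSP5 (0.46, adjusted p = 0.0154), DUSP8 (0.39, adjusted p = 0.0483), DUSP10 (0.17, adjusted p = 0.124) and DUSP2 (0.17, adjusted p = 0.396) did not pass.

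Within each isolation method the direction of the difference was that of the pooled comparison for all 9 genes. With UC (EUC against SUC), DUSP1 differed by 1.07 ± 0.154 and was called (adjusted p = 3.74e-04), DUSP6 by 0.66 (adjusted p = 0.00137), DUSP4 by 0.50 (adjusted p = 6.71e-04) and DUSP7 by -0.48 (adjusted p = 0.0027). DUSP16 gave 0.61 (adjusted p = 0.0141). So 1 of 9 genes was called within UC and 4 passed the adjusted p alone, against 0.768% and 2.49% of all tested genes. With PL (EPL against SPL), DUSP1 differed by 0.51 (adjusted p = 0.168), DUSP6 by 0.38 (adjusted p = 0.14), DUSP16 by 0.57 (adjusted p = 0.0593), DUSP7 by -0.38 (adjusted p = 0.0443) and DUSP4 by 0.16 (adjusted p = 0.61). Within PL 0 of 9 genes were called by edgeR and 0 passed the adjusted p alone, against 0.122% and 0.384% of all tested genes, and 5 of the 9 had an unadjusted p of at most 0.05, as did 1447 of the 17198 tested genes. The adjusted p of the difference between the methods' values was 1 for each gene, as given above.

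**Figure D4:**
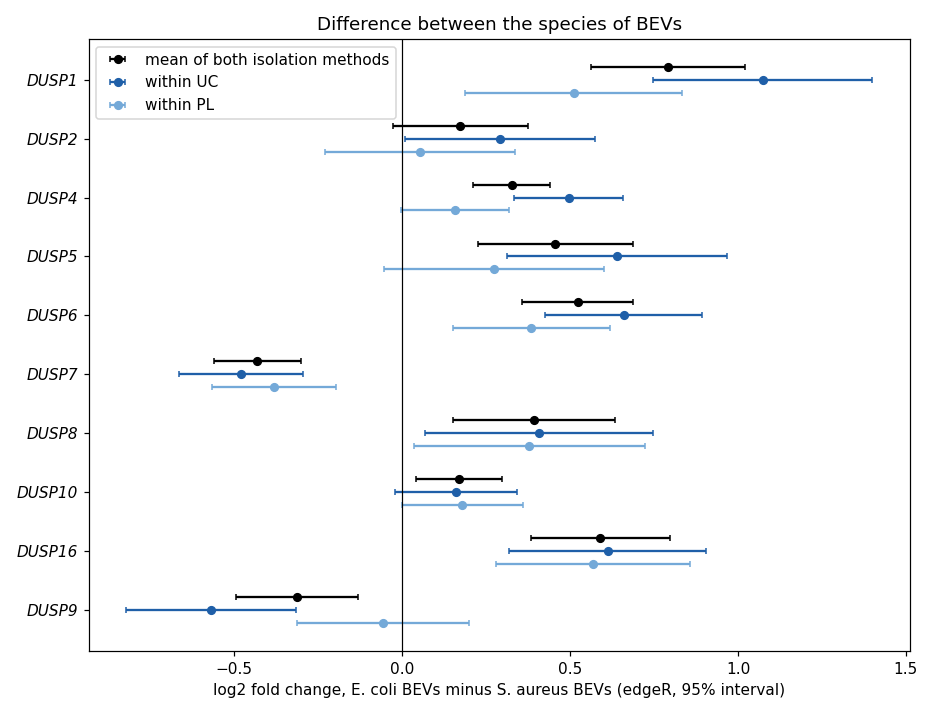
Log2 fold change of *E. coli* BEVs against *S. aureus* BEVs on the x axis for each phosphatase gene on the y axis, as the mean of both isolation methods (black), within UC (dark blue) and within PL (light blue). Points are edgeR estimates and bars are 95% intervals. DUSP1 lies farthest right with the mean of both methods (0.79) and within UC (1.07), and DUSP7 and DUSP9 lie left of 0.

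The groups were ordered by their mean level for each gene. For DUSP1, DUSP4, DUSP5 and DUSP6 the order was EUC, EPL, SPL, SUC and NC from high to low. EUC and EPL overlapped for each of these genes, and SPL and SUC overlapped for each but DUSP4. EPL and SPL did not overlap for DUSP1, DUSP4 and DUSP6, and NC was apart from SUC for all of them. DUSP16 had EPL before EUC, and DUSP8 had SUC before SPL, in both cases with overlapping neighbours. DUSP7 ran the other way, with NC, SUC, SPL, EUC and EPL from high to low. NC was apart from SUC and SPL was apart from EUC, while SUC overlapped SPL and EUC overlapped EPL.

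Genes with the most similar profiles were sought among 12277 protein-coding genes, by the root mean square difference of log2 CPM from the candidate after centring each gene on its own mean over the 15 libraries. All 15 points share the libraries and the treatments. The closest genes to DUSP4 were SRC (0.078) and NFKB1 (0.0825), with a range of 3.06 for DUSP4 itself. DUSP6 was closest to KYNU (0.113) and CD44 (0.144), and DUSP1 to HGD (0.182) and AHR (0.192), with ranges of 4.13 and 4.60. DUSP5 was closest to RHOB (0.102) and HLX (0.119), DUSP8 to NINJ1 (0.145) and IRF7 (0.15), and DUSP16 to PTPRK (0.136) and N4BP1 (0.139). For the falling gene DUSP7 the closest were HDAC5 (0.0779) and ESYT1 (0.0929), with a range of 1.5. DUSP2 and DUSP10 varied too little, over ranges of 0.581 and 0.434, for a likeness to be read from DOLK and NR1H2 or from UFL1 and ZFTA.

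Other genes of the MAP kinase pathway are described from fixed lists by the same call rule. Of all tested genes, 9.43% were called higher and 5.75% lower in EUC, and 9.38% and 5.15% in EPL. The shares were 6.82% and 3.06% in SUC, and 7.76% and 3.7% in SPL. Counts near these shares are not read as results about a list. Of the 10 MAP kinase genes, the substrates of these phosphatases, 1 was called, MAPK10, which encodes a JNK isoform best known from neurons. It rose by 3.31 in EUC and 3.47 in EPL on the log2 scale from 0.16 CPM in NC to 1.67 and 1.86 CPM, a level near the filter. In SUC and SPL its log2 fold changes were 2.31 (adjusted p = 0.0306) and 2.56 (adjusted p = 0.014). The median of the 10 genes was -0.11 in EUC and 0.02 in EPL, and the median of the 9 phosphatases was 1.89 and 1.97. With the adjusted p alone, 3 of the 10 were higher and 2 lower in EUC, against 16.5% and 14% of all tested genes. Beside MAPK10 these were MAPK11 (log2 fold change 0.78) and MAPK7 (0.59), and MAPK3, which encodes an ERK (-0.96, adjusted p = 1.31e-05), and MAPK12 (-0.68), all under 2-fold and named after their values were seen.

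Upstream of them, 1 of 7 MAP kinase kinase genes was called. In EUC, 9.43% of all tested genes were called higher and 5.75% lower. The small counts here are therefore not read as results about the lists. MAP2K6, an activator of p38, was lower in all 4 groups, with log2 fold changes of -3.54 for EUC, -3.88 for EPL, -3.27 for SUC and -3.44 for SPL, from 3.87 CPM in NC to 0.394 CPM or less. Of 14 MAP3 kinase genes, MAP3K8, the kinase that activates the ERK branch downstream of Toll-like receptors, rose in all 4 groups, from 11.7 ± 1.21 CPM in NC to 66.0 ± 9.57 for EUC, 55.2 ± 2.89 for EPL, 59.7 ± 4.86 for SUC and 72.3 ± 1.64 for SPL. Its log2 fold changes were 2.50, 2.24, 2.35 and 2.63, with adjusted p of at most 5.86e-11. MAP3K6 was called lower in EUC (-1.09) and not in the other groups. Of 10 tested kinases activated by MAP kinases, RPS6KA4, a nuclear kinase that phosphorylates CREB and histone H3, fell in all 4 groups, with log2 fold changes of -1.75, -1.72, -1.30 and -1.48. MAPKAPK3, a p38-activated kinase, was lower in EUC (-1.23) and EPL (-1.22), and RPS6KA2, an ERK-activated kinase, was higher in EUC (1.44), EPL (1.37) and SPL (1.07).

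A list of other dual-specificity phosphatases, which does not hold DUSP9, gave 0 calls by edgeR in all 4 comparisons with NC. In EUC, 9.43% of all tested genes were called higher and 5.75% lower. The 16 listed genes with a row of counts included 11 that were tested, and 1 or 2 of these had an unadjusted p of at most 0.05 in each comparison. DUSP3, which was named after its values were seen, had a log2 fold change of -0.59 in EUC (adjusted p = 1.01e-06), under 2-fold. The list's medians were -0.05 in EUC and EPL, -0.04 in SUC and -0.08 in SPL. Among 11 tested genes of other MAP kinase phosphatases and ERK feedback inhibitors, SPRED2 was called higher in EPL (1.06) and SPRED1 in SPL (1.02). Their values in the remaining groups lay between 0.59 and 0.97, each with an adjusted p of at most 0.00275.

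Transcripts known to follow ERK activity rose in part. Of the 12 early response genes, 7 were called higher and 1 lower in EUC and in EPL, 5 higher and 0 lower in SUC, and 6 higher and 0 lower in SPL. Of all tested genes, 9.43% were called higher and 5.75% lower in EUC, and 9.38% and 5.15% in EPL. The shares were 6.82% and 3.06% in SUC, and 7.76% and 3.7% in SPL. The medians of the 12 genes were 1.08, 1.11, 0.93 and 0.99. IER3, a survival gene, had log2 fold changes of 5.15, 4.53, 4.82 and 4.90 in EUC, EPL, SUC and SPL, from 0.285 CPM in NC. EGR2, a transcription factor, had 4.63, 4.35, 4.17 and 4.32, and PHLDA1 had 3.88, 3.76, 3.23 and 3.55. JUNB, an AP-1 subunit, had 1.48, 1.30, 1.35 and 1.32. The gene called lower was ETV4 (-1.21 in EUC and -1.16 in EPL), named after its values were seen.

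**Figure D5:**
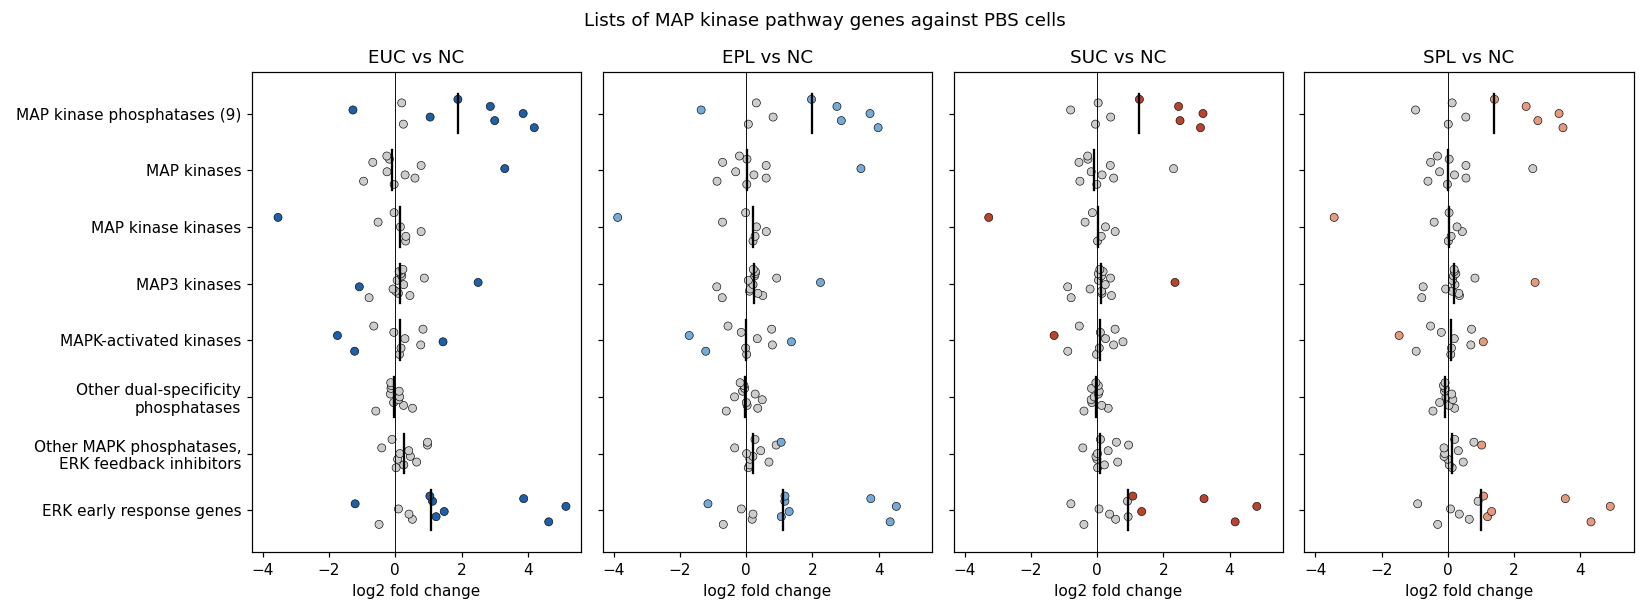
Log2 fold change against NC (x axis) of each tested gene in the 9 phosphatases and 7 lists of MAP kinase pathway genes (y axis), in 1 panel per stimulated group. Each point is 1 gene, coloured where called (adjusted p at most 0.01 and at least 2-fold) and grey otherwise, and the black line is the median of the list. The medians of the 9 phosphatases, 1.28 to 1.97, and of the ERK early response genes, 0.93 to 1.11, lie right of those of the other lists.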

How the data were processed

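The 15 RNA-seq libraries of THP-1 cells were grouped by their titles and treatments in the labels. RNA had been extracted by the authors with Trizol and made into libraries with an NEBNext Ultra kit, and paired-end reads had been aligned to hg38 with HISAT2. They deposited whole-number counts of reads per Ensembl gene, without normalization. The submitters' processing notes name FastQC 0.11.5, HISAT2 2.1.0, StringTie 1.3.3b, DESeq 1.28.0 and featureCounts. How reads were counted with respect to strand, and on which annotation release, is not given in the sources used here. Without strand, the counts of reads over overlapping antisense genes are uncertain.

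The tests used edgeR 4.0.16 (R 4.3.3). After filterByExpr, 17198 of 60286 genes were scaled by TMM and fitted over all 15 libraries (glmQLFit, glmQLFTest), with Benjamini-Hochberg adjustment over all tested genes. The common biological coefficient of variation was 0.118. SEs are the log2 fold change divided by the root of its F. CPM and RPKM used TMM library sizes, RPKM the union of GENCODE release 44 exons, and log2 CPM a prior count of 2. DESeq2 1.42.0, other normalizations, filters, thresholds, designs and left-out libraries were alternatives. Figures were drawn with matplotlib. The script was tested on simulated data. All 9 genes were named, with DUSP9, up to 4 called genes per list by the size of the change (mean CPM at least 1) and the 2 most similar genes each. The members and lists were chosen with earlier results of these data known. Protein sequences were not used here.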

Additional observations from a re-analysis of the deposited data

How the results depend on the processing

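For the log2 fold changes of the 9 genes and DUSP9, 8 other settings were tried besides leaving out single libraries. These were DESeq2, RLE and upper-quartile normalization, no filter or a stricter filter on low counts, a replicate block, a fit of only the groups compared, and a fit without EUC3, EPL1 and SUC3, the last chosen after seeing the data. Direction and side of the threshold were the same in 78 of 80 values for EUC, 78 of 80 for EPL, 79 of 80 for SUC and 78 of 80 for SPL, all against NC. The calls that changed were DUSP5 in EUC (0.95 with upper-quartile normalization, 0.86 without the 3 libraries) and DUSP7 in SPL (-1.05 with upper-quartile normalization).

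Small values changed sign. With upper-quartile normalization, which moved the median of all genes by less than 0.1, DUSP2 gave -0.0193 in EPL and -0.0597 in SPL, and DUSP10 gave -0.0449 in SUC, each against NC. Without the 3 libraries, DUSP2 gave -0.0386 (EPL against NC), DUSP9 -0.0555 (EPL against EUC), DUSP8 0.0313 (SPL against SUC) and DUSP16 0.0453 (difference of methods between species). Leaving out 1 library at a time, DUSP2 ranged from -0.0432 to 0.164 in EPL, from -0.155 to 0.0527 in SUC and from -0.0656 to 0.109 in SPL against NC, and from -0.0243 to 0.164 in SPL against SUC. DUSP16 ranged from -0.00307 to 0.183 and DUSP9 from -0.0778 to 0.108 in EPL against EUC, and DUSP8 from -0.257 to 0.0311 in SPL against SUC. For the difference of methods between species, DUSP8 ranged from -0.202 to 0.126, DUSP10 from -0.0276 to 0.0689 and DUSP16 from -0.153 to 0.0513. None of these values was called in any of these fits. Of the 9 genes, 6 to 7 were called for EUC, 6 for EPL, 5 for SUC and 5 to 6 for SPL when 1 library was left out.

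Counts over all genes followed the threshold. Without a minimum fold, 5251 genes were called for EUC, 5026 for EPL, 3697 for SUC and 4114 for SPL, against 2610, 2498, 1700 and 1972 with it. With glmTreat against 2-fold they were 1393, 1309, 807 and 1003. For SPL against SUC, 1 gene was called, with 2 under DESeq2, without a filter, with only the groups compared and without the 3 libraries, 0 with glmTreat, and 1 to 2 with 1 library left out. Between the species, 118 genes were called, with 665 without a minimum fold, 5 with glmTreat and 21 within PL, and of the 9 phosphatases 5 passed without a minimum fold and 1, DUSP1 (1.07), within UC. For the difference of methods between species, 0 genes were called, with 3 under DESeq2, 4 without a filter, 4 without the 3 libraries and 0 to 1 with 1 library left out. The causes were not tested beyond what each setting changes by its construction.

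The labels number the libraries alike in every group, and no pairing by number was seen on average. Same-numbered libraries of different groups had a mean correlation of their deviations of 0.00946 over 30 pairs (-0.452 to 0.525), 7 of them over 0.1. The mean was -0.00359 over 60 differently numbered pairs (-0.484 to 0.488), 12 of them over 0.1. Whether some libraries were handled together was not tested. With the replicate block the members called were 7 for EUC, 6 for EPL, 5 for SUC and 5 for SPL, and the genes called were 2553, 2449, 1677 and 1938. In NC libraries DUSP8, DUSP16 and DUSP1 had 35 to 102 counts each, which limits the precision of their fold changes.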
